A study of Homo sapiens with 3 samples.

Results

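Convergent 3′ ends are places where RNA of the plus strand and RNA of the minus strand both end within a short stretch of the genome. In the summed counts of 3 libraries of polyadenylated RNA ends from HEK293T cells, an established human embryonic kidney line, 374 such pairs were found. A pair was a plus-strand and a minus-strand 3′ end site at most 500 nt apart, each the nearest site of the other strand, both on nuclear chromosomes and each with at least 200 summed counts. The 374 pairs held 748 of 16830 sites with that many counts, or 4.44%. In 129 pairs the plus-strand end lay beyond the minus-strand end in genome order, so that the RNAs overlap at their ends ("overlapping"). In the other 245 the plus-strand end lay before the minus-strand end or at the same position ("tail to tail"). The members were thus chosen by position and summed counts, so the distances, the counts and the order of the ends are given as a description.

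The 3′ end of most mRNAs is made by cleavage of the nascent transcript a short way downstream of a poly(A) signal, an AAUAAA-like hexamer, followed by addition of a poly(A) tail. RNA polymerase II transcribes past the cleavage site before it leaves the template, so neighbouring genes that face each other with their 3′ ends share the same stretch of DNA. RNAs of such genes can be complementary at their ends where the cleavage site of each lies inside the other's transcript. The title of the series concerns structure at the 3′ ends of mammalian mRNAs and their processing and stability.

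The ends were read by 2P-seq, which sequences from the poly(A) tail into the end of an mRNA. In 4sU-2P-seq the same is done on RNA captured through 4-thiouridine (4sU), a nucleoside analogue that cells build into the RNA they make while it is in the medium, so newly made molecules are over-represented in the captured RNA. The groups were RNA captured after 30 min of labelling (4sU 30 min), RNA captured after 60 min (4sU 60 min), and an input, titled as that of the 30 min labelling, which stands for steady-state RNA and whose treatment label reads none. Per the labels' protocols the captured RNA skipped the first poly(A) selection; for the input no source used here says so. With 1 library a group (n = 1), no difference has a replicate check and no p-value is given. Intervals are 95% intervals of counting error only. The 4sU 30 min library held 9652023 nuclear counts, the 4sU 60 min library 6151986 and the input 32768468, and levels are nuclear counts scaled to a common total of 1e6 (counts per 1e6, CPM). Each molecule gives 1 end, so no scaling by length was applied. CPM is a share of a library, so a change in one RNA and the opposite change in the rest cannot be told apart, nor can fewer cells be told apart from less RNA per cell.

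Positions are 1-based and follow the numbering of the tables, for which no source used here names a build, and no site was assigned to a gene. Plus and minus are read here as the strand of the RNA, a point no source used here settles. As a check of this, 9 of the 10 mitochondrial sites with the most counts were on the plus strand, which as background is the strand that codes for nearly all mitochondrial mRNAs and for both rRNAs. Over all mitochondrial counts the plus strand held 84.2% in 4sU 30 min and 84.8% in 4sU 60 min, against 55.5% in the input, so the check is weaker there. Among mutual nearest pairs over 500 and up to 5000 nt apart, outside the limit used here, 525 of 627 (83.7%) had the plus-strand end first, the order of genes that face each other.

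The spacing of the ends was uneven. Tail to tail pairs were most frequent at 0 to 14 nt, with 46 pairs or 3.07 per nt, and sparse at 15 to 50 nt, with 7 pairs or 0.194 per nt. They numbered 33 at 51 to 100 nt (0.660 per nt) and 159 at over 100 nt (0.398 per nt). Overlapping pairs numbered 18 with an overlap under 20 nt (0.947 per nt) and 35 with an overlap of 20 to 50 nt (1.13 per nt), and then thinned out to 25 at 51 to 100 nt (0.5 per nt) and 51 at over 100 nt (0.128 per nt). Tail to tail ends thus crowded within 14 nt of each other, and a sparse stretch followed. The limits of these distance classes were set after the distances were seen.

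**Figure D1:**
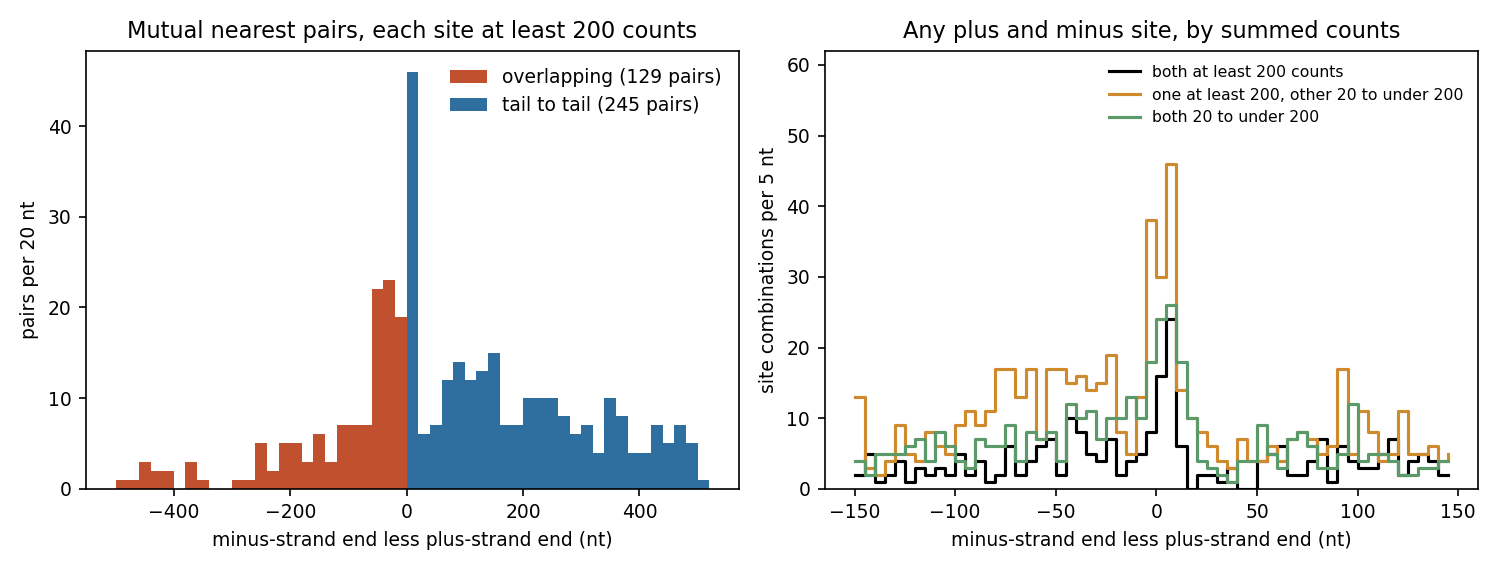
Left, the position of the minus-strand end less that of the plus-strand end (nt) for the 374 pairs, in bins of 20 nt, with overlapping pairs below 0 and tail to tail pairs from 0. Right, the same difference in bins of 5 nt for every combination of a plus and a minus site, split by their summed counts. The peak just above 0 appears in all 3 count classes, and with weaker sites it extends to just below 0. The trough after it is clear only where both sites had at least 200 counts.

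The peak on the tail to tail side was also seen with weaker sites, which the rule did not use. Among combinations of a site with at least 200 counts and an opposite site with 20 to under 200 counts, 90 of 1291 within 500 nt were tail to tail at 0 to 14 nt (6.0 per nt), against 43 at 15 to 50 nt (1.19 per nt) and 71 at 51 to 100 nt (1.42 per nt). Where both sites had 20 to under 200 counts, the densities were 4.53, 0.861 and 1.16 per nt over the same classes. The peak was thus present with the weaker sites, but there it reached over to the overlapping side. With 1 weaker site, 38 combinations overlapped by 1 to 5 nt, against 30 at 0 to 4 nt and 46 at 5 to 9 nt. With both weaker these were 18, 24 and 26, and with both at least 200 counts 8, 16 and 24. The density of combinations with weaker sites at 15 to 50 nt was below that at 51 to 100 nt but not below that at over 100 nt. The latter was 1.185 per nt with 1 weaker site and 0.835 per nt with both weaker. The overlapping side was different: with 1 weaker site, combinations overlapping by under 20, 20 to 50 and 51 to 100 nt had 3.32, 3.13 and 2.56 per nt, all above tail to tail at 51 to 100 nt. Read in each library alone, with each end at its own highest position, the distance between partners was identical in all 3 libraries for 262 of 374 pairs and varied by at most 5 nt for 338 (90.4%). In 6 pairs the class changed between libraries. The band at 0 to 14 nt held 48 pairs by the positions of 4sU 30 min, 49 by those of 4sU 60 min and 46 by those of the input.

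Within 24 nt of the highest position, 92.3% of the 16830 sites had no count at all on the opposite strand in any library. Of the 1000 sites with the most counts, paired sites included, 899 (89.9%) had none, and 14 (1.4%) had opposite-strand counts of at least 1% of their own, against 458 (2.72%) of all sites.

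Partners were often unequal in level. In 4sU 30 min the larger partner had a median of 3.08 times the counts of the smaller, and in 64 pairs over 10 times. In 4sU 60 min the median was 3.33 times, with 62 pairs over 10-fold, and in the input it was 3.24 times, with 72 (19.3%). Neither strand led: the plus-strand end had more counts in 173 pairs in 4sU 30 min, 175 in 4sU 60 min, against 181 in the input. In 78 pairs the larger partner in 4sU 30 min was the smaller one in the input, and in 75 this held for 4sU 60 min. Summed over both partners the pairs ranged from 471 to 242421 counts with a median of 2792.5.

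The limits of the rule fall within a continuous range of distances and counts. The farthest pair inside the distance limit was on chromosome 5, plus 139929154 and minus 139929654, 500 nt apart, and the nearest outside it on chromosome 17, plus 37884910 and minus 37885411, 501 nt apart. The smallest partners inside the count limit, on chromosome 1 (plus 26158777, minus 26158402) and chromosome 19 (plus 17434104, minus 17434033), both had 200 counts. Just outside were pairs on chromosome 1 (plus 40222439, minus 40222855) and chromosome 11 (plus 126132823, minus 126132836) whose smaller partner had 199 counts.

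By chromosome, the share of sites in a convergent pair was 7.54% on chromosome 17 (41 pairs), 7.52% on chromosome 16 (29 pairs) and 6.38% on chromosome 19 (30 pairs). At the other end it was 1.0% on chromosome 4 (3 pairs), 1.83% on chromosome 13 (3 pairs) and 1.86% on chromosome X (5 pairs). Chromosome 1 had the most pairs, 51. About the same share of overlapping and tail to tail pairs had no further site of at least 200 counts within 1000 nt of either partner, 53.5% (69 of 129) against 53.9% (132 of 245). In 43 of all 374 pairs such further sites lay on both strands.

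Against input, 190 of the 748 paired sites (25.4%) were higher in 4sU 30 min and 116 (15.5%) were lower. A site was called at a difference of 2-fold or more with an interval that excluded 1. Over all 16830 sites 32% were called higher and 19.2% lower, so paired sites were called in both directions at shares below this background. The split depends on the scaling: with TMM factors 20.2% of paired sites were higher and 21% lower, against 27.2% and 24.6% of all sites, and with mitochondrial counts in the total 16.4% and 25.8%, against 24% and 29.5%. The median log2 ratio of paired sites was 0.20, that of the other 16082 sites 0.23 and that of all sites 0.23. The log2 ratios between the quartiles ran from -0.60 to 1.02 for paired sites and from -0.75 to 1.40 for the other sites. Of all nuclear counts, paired sites took 4.81% in the 4sU 30 min library, 4.99% in the 4sU 60 min library and 5.95% in the input.

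At 60 min, 160 paired sites (21.4%) were higher than in the input and 138 (18.4%) were lower, with 23.6% and 25.8% over all sites. With mitochondrial counts in the total these shares were 14% and 29.3%, against 17.0% and 37.2% of all sites. Their median log2 ratio was 0.08, against -0.12 for the other sites. Both 4sU ratios use the same input library, so they are not separate checks. From 30 to 60 min, 31 paired sites (4.14%) were higher and 83 (11.1%) were lower at 60 min, with 4.08% and 16.6% over all sites. With TMM factors 8.96% were higher and 5.21% lower, against 7.78% and 8.47% of all sites. The median log2 ratio of 60 over 30 min was -0.13 for paired sites and -0.33 for the other sites, against -0.32 for all sites.

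Paired sites had more counts than the rest, a median of 1098 against 653, so the shares were also read within classes of summed counts. At 30 min the share of sites called in either direction was 47.3% of 222 paired sites against 55.3% of 6561 others at 200 to under 500 counts, and 38.5% of 135 against 50.7% of 3575 at 500 to under 1000. It was 38.6% of 285 against 47.0% of 4600 at 1000 to under 5000 counts and 36.8% of 106 against 51.9% of 1346 from 5000. The share of paired sites was thus the smaller one in all 4 classes at 30 min. At 60 min it was also the smaller one in each class, from 42.3% against 53.3% in the lowest to 37.7% against 46.5% in the highest. Unsplit by counts, 29.1% of 254 sites in opposite-strand pairs over 500 to 1000 nt apart were called higher at 30 min. Another 13.0% were called lower, and at 60 min the shares were 22.0% and 16.1%. Sites of convergent pairs had 25.4% and 15.5% at 30 min and 21.4% and 18.4% at 60 min. Low shares of called sites were thus not particular to convergent pairs. No test across replicates could be made of these shares.

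**Figure D2:**
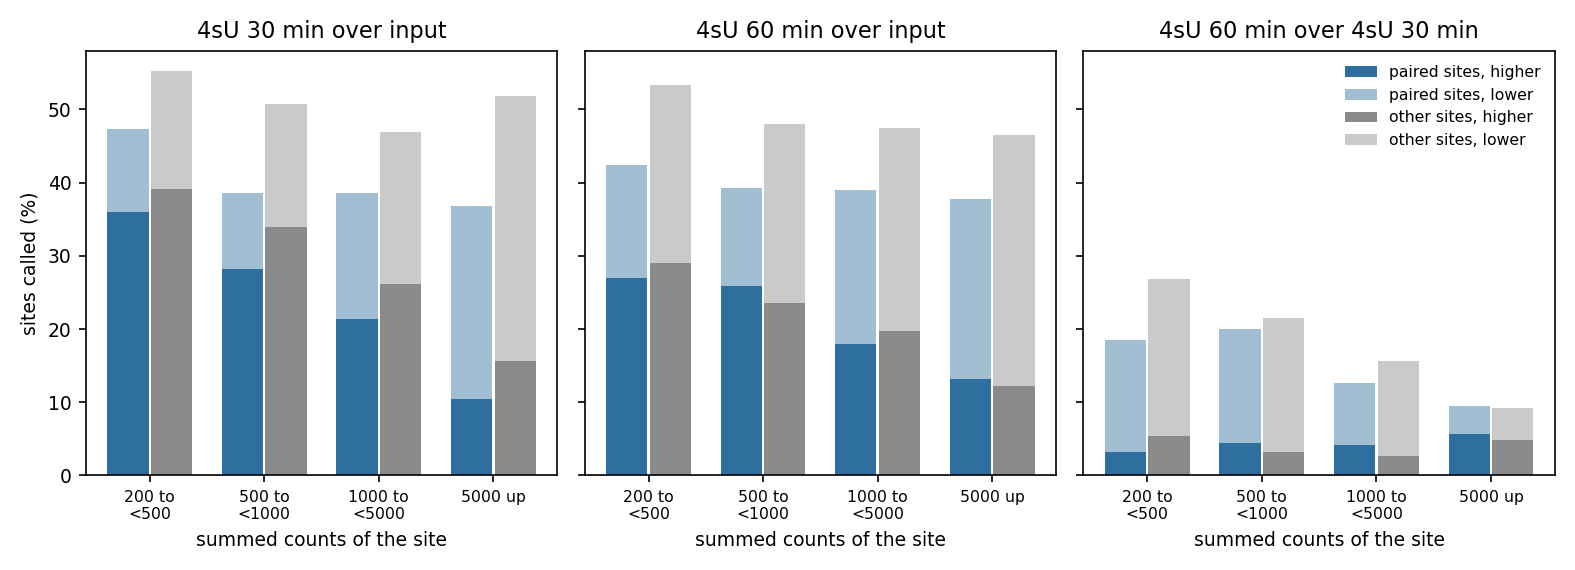
Share of sites (%) called at least 2-fold higher (full colour) or lower (pale) in 3 comparisons, for paired sites and other sites, by summed counts of the site. Against input, the bars of paired sites are the shorter ones in every count class, 47.3% against 55.3% in the lowest class at 30 min.

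Overlapping and tail to tail pairs were set side by side. At 30 min the median log2 ratio to input was 0.04 over the 258 sites of overlapping pairs and 0.32 over the 490 sites of tail to tail pairs, a difference of -0.28. The overlapping pairs were not uniform. The 50 sites in pairs overlapping by 51 to 100 nt had a median of 0.85, above the 0.22 to 0.52 of the tail to tail distance classes. In the other overlapping distance classes the medians ran from -0.17 to -0.01. Of the sites in overlapping pairs 24.4% were called higher and 19% lower, and of those in tail to tail pairs 25.9% and 13.7%. At 60 min the medians were -0.09 and 0.18, with 16.3% and 24.1% of sites called higher and 23.3% and 15.9% called lower. Sites of overlapping pairs also had fewer counts, a median of 816 against 1276.5; the part of this in the difference was not tested. With a minimum of 100 summed counts the difference of the medians at 30 min shrank to -0.10.

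Within a pair, the ratios to input of the partners differed by a smaller median at 30 min than those of opposite-strand ends farther apart, and by a larger one than those of neighbouring ends on 1 strand. The measure was the log2 ratio of the plus-strand partner less that of the minus-strand partner, in which any common scaling of a library cancels. At 30 min its absolute value had a median of 1.06 over the 374 pairs, or about a 2-fold difference, where counting error alone gave a median standard error of 0.19. It was 1.19 in 500 opposite-strand pairs over 1000 to 5000 nt apart, 1.44 in 1083 pairs over 5000 and up to 50000 nt apart, 1.40 in 838 pairs farther apart and 0.52 in 1998 mutual nearest pairs of same-strand sites at most 500 nt apart. Same-strand neighbours can be ends of the same gene. At 60 min the median was 1.07 in convergent pairs and 1.01, 1.29, 1.33 and 0.62 in these other classes, in the same order. Opposite-strand pairs over 500 to 1000 nt apart had 1.19 at 30 min and 1.04 at 60 min. At 60 min the median of convergent pairs was thus not below that of opposite-strand pairs up to 5000 nt apart.

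Called by the same 2-fold limit, partners differed in 201 of 374 convergent pairs at 30 min (53.7%), with the plus-strand partner higher in 94 and the minus-strand partner higher in 107. The share was 57.8% in opposite-strand pairs over 1000 to 5000 nt apart, 62.2% in those up to 50000 nt apart, 61.3% in those beyond and 21.4% in same-strand pairs. At 60 min partners differed in 203 convergent pairs (54.3%), against 50.6%, 59.7%, 61.0% and 27.8% in the same classes. At least 4-fold differences at 30 min were seen in 86 convergent pairs (23.0%), against 25.8%, 34.0%, 34.8% and 2.70%. In opposite-strand pairs over 500 to 1000 nt apart, partners differed in 57.5% at 30 min and 55.1% at 60 min. At least 4-fold differences made up 29.9% of these pairs at 30 min. Where both partners had at least 1000 counts the call was made at 30 min in 53 of 106 convergent pairs, 52.6% of 114 opposite-strand pairs over 1000 to 5000 nt apart and 16.1% of 341 same-strand pairs, so the order of these shares was kept in the deeper pairs.

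Across the 374 pairs the log2 ratios of the partners at 30 min correlated with r = 0.12 (Pearson) and rho = 0.11 (Spearman). For same-strand pairs these were 0.84 and 0.82, and for opposite-strand pairs over 1000 to 5000 nt apart 0.17 and 0.18. For those over 500 to 1000 nt apart they were -0.004 and -0.06. Pairs are not replicates, and all points share the same libraries, so these values describe the set and carry no test. At 60 min the convergent pairs had an r of 0.20 and a rho of 0.20. Overlapping pairs had 0.18 and 0.19 at 30 min, and tail to tail pairs 0.09 and 0.06.

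**Figure D3:**
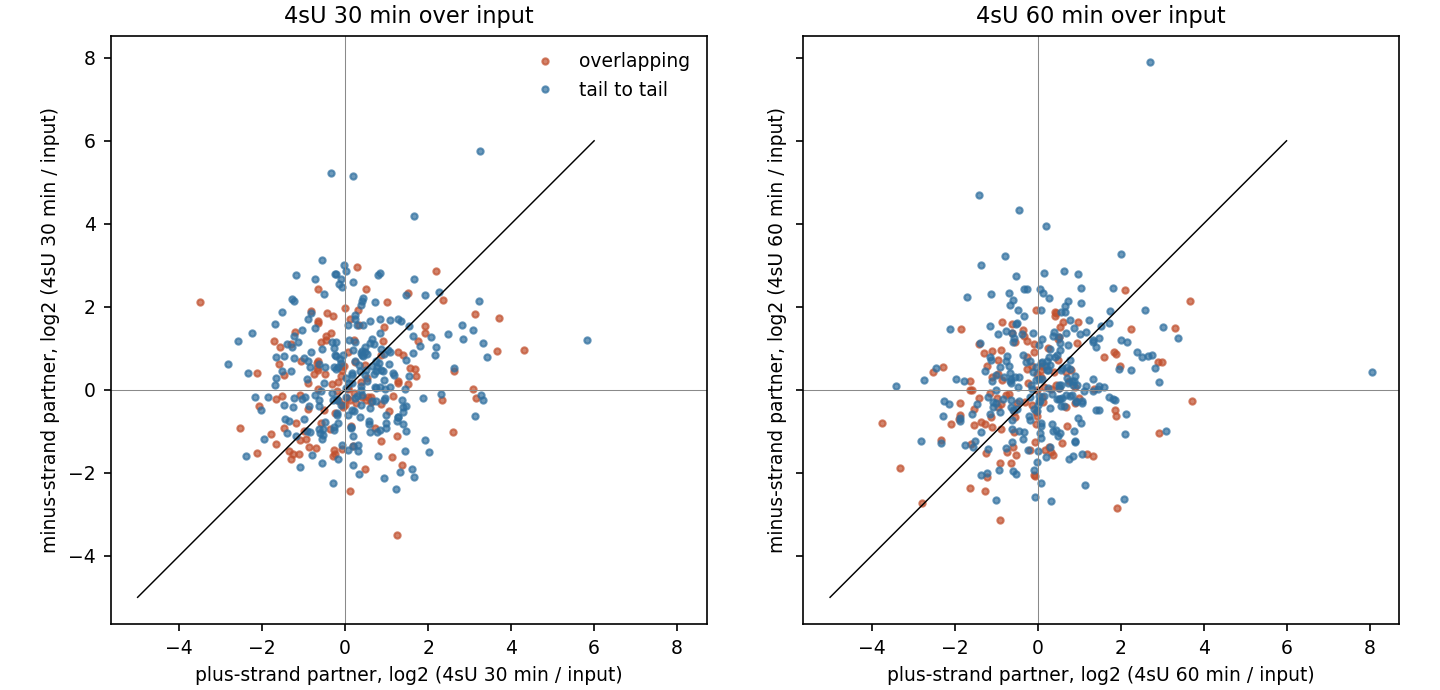
log2 ratio to input of the minus-strand partner against that of the plus-strand partner, for 4sU 30 min (left) and 4sU 60 min (right), with 1 point per pair and the line of equal ratios. The points form a round cloud with no strong relation, r = 0.12 at 30 min and 0.20 at 60 min.

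**Figure D4:**
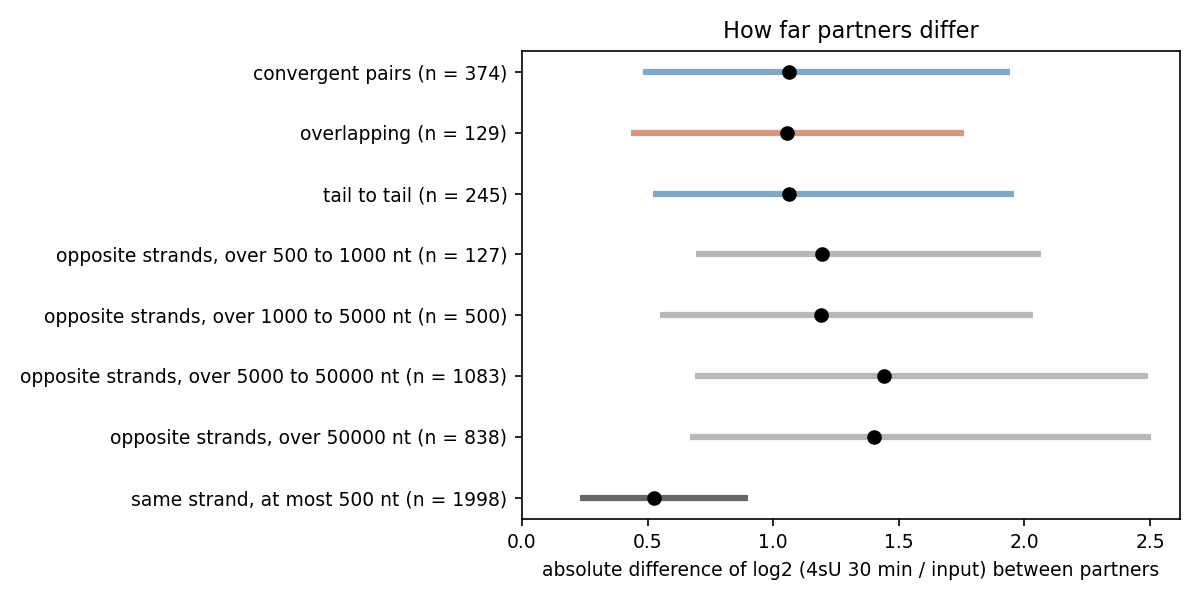
Absolute difference between partners in log2 ratio of 4sU 30 min to input, as median (point) and range between the quartiles (bar), for convergent pairs and their classes, for opposite-strand pairs farther apart and for same-strand pairs. Convergent pairs lie at a median of 1.06 and same-strand pairs at 0.52.

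Both partners were called higher than input at 30 min in 30 pairs (8.02%) and both lower in 13 (3.48%), while in 29 (7.75%) one was called higher and the other lower. Among same-strand pairs the shares were 17.2%, 17.8% and 0.100%, and among opposite-strand pairs over 1000 to 5000 nt apart they were 15.6%, 2.20% and 6.20%. Among the 127 opposite-strand pairs over 500 to 1000 nt apart they were 6.30%, 0.787% and 8.66%, nearer to those of convergent pairs. Partners with opposite calls were 4.85- to 45-fold apart in their ratio, with a median of 9.56-fold. Of these 29 pairs 10 were overlapping and 19 tail to tail, and the plus-strand partner was the higher one in 12.

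The widest gap with the plus-strand partner higher was in an overlapping pair on chromosome 11, plus 118886454 and minus 118886421, whose RNAs overlap by 33 nt. The plus-strand end had 23.9 CPM in 4sU 30 min and 38 CPM in 4sU 60 min, against 10.1 CPM in the input. The minus-strand end had 7.15 and 11.2 CPM in the captured RNA, against 81.3 CPM in the input. At 30 min the plus-strand end was thus 2.36-fold higher than input (1.99 to 2.80) and the minus-strand end 11.4-fold lower (8.95 to 14.7). The partners differed 26.7-fold (19.9 to 35.7), and the plus-strand share of the pair's counts was 77.0% in 4sU 30 min, 77.2% in 4sU 60 min, against 11.1% in the input. Which partner dominated the locus was therefore reversed between captured and input RNA.

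On the same chromosome a tail to tail pair, plus 65487074 and minus 65487156, 82 nt apart, had a plus-strand end at 220 CPM in 4sU 30 min and 231 CPM in 4sU 60 min, against 69.7 CPM in the input. Its minus-strand end had 80.5 and 309 CPM, against 347 CPM in the input. At 30 min the partners differed 13.6-fold (12.4 to 15.0) and at 60 min 3.72-fold (3.42 to 4.03). The minus-strand end was 3.84-fold higher at 60 than at 30 min (3.53 to 4.18), while the interval of the plus-strand end included 1, at 1.05-fold (0.978 to 1.12).

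Among pairs with at least 100 counts at each partner in 4sU 30 min or in the input, the others with the largest differences in this direction were on chromosome 1 (plus 1337290, minus 1337293), chromosome 15 (plus 90171251, minus 90171209) and chromosome 7 (plus 106842966, minus 106843003). Their partners differed 13.4-, 12.2- and 12-fold at 30 min and 6.51-, 6.48- and 3.25-fold at 60 min. The plus-strand end on chromosome 1, with 49 input counts, passed the count minimum only through the captured libraries, where it is high. On chromosome 15 the plus-strand end had 68.6 CPM in 4sU 30 min, 25.5 CPM in 4sU 60 min, against 11.3 CPM in the input. Its partner, with which it overlaps by 42 nt, had 3.52 CPM in 4sU 30 min and 2.44 CPM in 4sU 60 min, against 7.17 CPM in the input. The plus-strand end was thus well above the input and most so at 30 min, while its partner was below it.

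With the minus-strand partner higher, the widest gap was in a tail to tail pair of chromosome 11, plus 118964257 and minus 118964453. The minus-strand end had 219 counts in 4sU 30 min and 76 in 4sU 60 min, against 20 in the much deeper input, which is 22.7 and 12.4 CPM against 0.610 CPM. It was 37.2-fold higher than input at 30 min (23.5 to 62.1). It passed the minimum of 200 summed counts only through the captured libraries, where it is high, so this ratio describes an end that the rule selected in that direction. The plus-strand end, 196 nt away, had 91.8 and 85.3 CPM against 116 CPM in the input, a ratio of 0.790 (0.733 to 0.850) that was not called. The rare partner thus had few counts in the input, while the abundant one stayed close to its input level in both captured libraries.

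A pair of chromosome 19 with ends only 10 nt apart, plus 18307549 and minus 18307559, showed a similar contrast. Its minus-strand end had 27.2 and 19.8 CPM in the captured RNA, against 0.763 CPM in the input, or 35.7-fold higher at 30 min (23.7 to 56.2). This end too passed the count minimum only through the captured libraries. Its plus-strand end had 14.3 and 4.71 CPM, against 12.6 CPM in the input. The plus-strand end made up 34.4% of the pair's counts in 4sU 30 min and 19.2% in 4sU 60 min, against 94.3% in the input. On chromosome 2, plus 101623727 and minus 101623691, overlapping by 36 nt, differed 45-fold at 30 min, with an interval from 18.5 to 109 because the plus-strand end had only 5 counts in 4sU 30 min. Its ends had 192 and 94 input counts and passed the count minimum only with the captured libraries added.

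Pairs of chromosome 7 (plus 99751825, minus 99752047) and chromosome 19 (plus 54610266, minus 54610328) completed this group, with partners 15.4- and 13.4-fold apart at 30 min. The minus-strand end of the chromosome 7 pair, with 150 input counts, passed the count minimum only with the captured libraries added. In the chromosome 19 pair, 62 nt apart, the plus-strand end had 49.6 CPM in 4sU 30 min and 152 CPM in 4sU 60 min, against 296 CPM in the input. The minus-strand end had 119 and 134 CPM, against 53.0 CPM in the input. The abundant end of steady-state RNA was thus 5.97-fold lower in 4sU 30 min (5.44 to 6.55), beside a partner 2.25-fold higher (2.09 to 2.43).

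**Figure D5:**
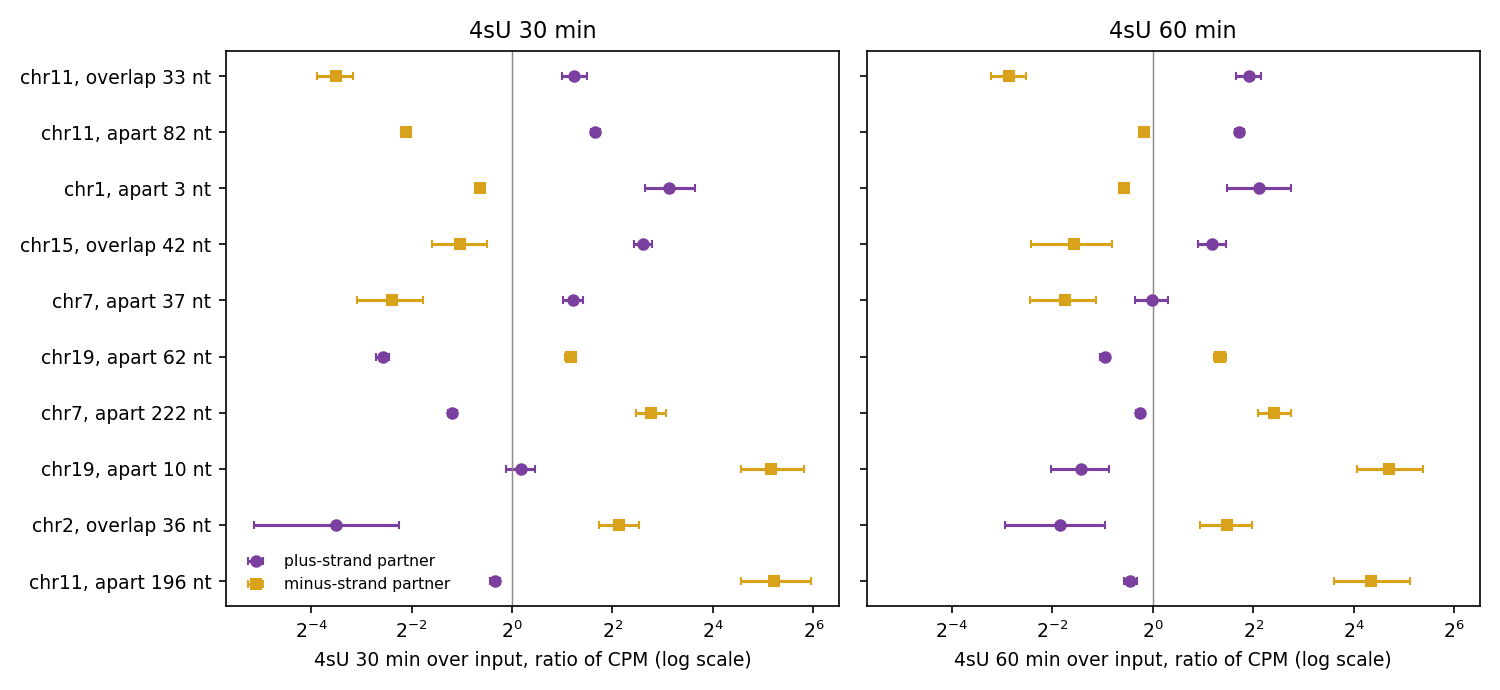
Ratio of CPM to input (log scale) at 30 min (left) and 60 min (right) of both partners in the 10 pairs with the largest differences in either direction, with 95% intervals of counting error; rows name the chromosome and the distance between the ends. In the top row the minus-strand partner is 11.4-fold below the input and the plus-strand partner 2.36-fold above it at 30 min.

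Some partners moved together. With the same counts asked, the pairs with both ends farthest above the input at 30 min were on chromosome 10 (plus 75540006, minus 75540388), chromosome 19 (plus 1228429, minus 1228287) and chromosome 15 (plus 75661923, minus 75661722). The partners of the chromosome 10 pair were 4.82-fold (4.07 to 5.71) and 5.12-fold (4.21 to 6.24) higher, and their difference of -0.09 on the log2 scale had an interval that included 0 (-0.45 to 0.28). At 60 min they were 2.05- and 4.28-fold higher than input, now 2.08-fold apart (1.5 to 2.89). In the chromosome 19 pair the ends, with an overlap of 142 nt, were 4.6- and 7.23-fold higher at 30 min and 4.31- and 5.33-fold higher at 60 min. In the chromosome 15 pair, with an overlap of 201 nt, they were 5.11- and 4.46-fold higher at 30 min and 1.96- and 3.10-fold higher at 60 min, of which the first was not called. Each of these 3 pairs holds an end with under 200 input counts, which passed the minimum only with the captured libraries added.

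The pairs with both ends farthest below the input were on chromosome 4 (plus 159629818, minus 159630288), chromosome 11 (plus 31454381, minus 31453949) and chromosome 10 (plus 112658496, minus 112658489). The chromosome 4 partners were 5.21- and 3.0-fold lower at 30 min, those of chromosome 11 were 4.34- and 2.87-fold lower, and those of chromosome 10 were 2.54- and 2.78-fold lower. The chromosome 10 ends lie 7 nt apart and overlap, and the plus-strand share of their counts was 87.4% in 4sU 30 min, 82.4% in 4sU 60 min, against 86.4% in the input.

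The most abundant pair joined a very common end with a rare one. On chromosome 1 the plus-strand end at 93307476 had 1324 CPM in 4sU 30 min and 1401 CPM in 4sU 60 min, against 6737 CPM in the input. The minus-strand end at 93307725, 249 nt away, had 6.94 and 4.39 CPM, against 5.28 CPM in the input. The common end was 5.09-fold lower at 30 min (5.0 to 5.18), and the interval of the rare end's ratio included 1, at 1.31 (0.976 to 1.75). The rare end, with 173 input counts, passed the count minimum only with the captured libraries added. The next pairs of the tail to tail class, on chromosome 19 (plus 8387278, minus 8387469) and chromosome 9 (plus 136218280, minus 136218666), also had their plus-strand end at 99.2% and 95.0% of the pair's counts in 4sU 30 min. At 30 min their partners differed 4.03- and 1.68-fold, with the rarer minus-strand end at the higher ratio. In all 3 pairs most counts of the common end were input counts. Choosing pairs by summed counts thus favours a lower ratio at that end by construction, so this only describes these pairs.

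Among overlapping pairs the most counts were at chromosome 2 (plus 55462744, minus 55462720), chromosome 1 (plus 45976726, minus 45976723) and chromosome 8 (plus 86126751, minus 86126739). In each the partner with more input counts had the lower ratio: 4.20-fold lower at 30 min on chromosome 2, 3.06-fold lower on chromosome 1 and 5.39-fold lower on chromosome 8. The rarer partners had ratios of 0.767 (0.583 to 0.996), 2.20 (1.88 to 2.58) and 1.08 (0.985 to 1.19). Choosing a partner by its input counts favours a lower ratio to input by construction, so this only describes these 3 pairs. On chromosome 8 the plus-strand share of the pair's counts was 42.6% in 4sU 30 min, 18.7% in 4sU 60 min, against 11.3% in the input.

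The closest pairs had both ends at the same or adjacent position. On chromosome 22 the plus- and minus-strand ends both peaked at 26887897. The plus-strand end had 153 CPM in 4sU 30 min and 116 CPM in 4sU 60 min, against 72.2 CPM in the input, and the minus-strand end had 180 and 145 CPM, against 56.1 CPM. Both ends were called higher at 30 min, 2.12-fold (1.99 to 2.27) and 3.21-fold (3.0 to 3.43), and the partners differed 1.51-fold (1.38 to 1.66). On chromosome 11 both peaked at 111955872, where the plus-strand end was 1.69-fold higher than input (1.44 to 1.98, not called) and the minus-strand end 2.01-fold lower (1.93 to 2.10). On chromosome 22 the ends at plus 38879444 and minus 38879445 had ratios near 1, of 1.30 (1.15 to 1.46) and 0.993 (0.954 to 1.03). Ends in the same place thus both lay above the input in one locus and lay on either side of it in another, where 1 of them was not called.

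Pairs at the shortest and longest distances were set side by side. Over the 46 tail to tail pairs 0 to 14 nt apart, the absolute difference at 30 min had a median of 1.43, partners were called different in 30 (65.2%), and the median log2 ratio of the sites was 0.52. For the 159 tail to tail pairs over 100 nt apart these values were 1.04, 84 pairs (52.8%) and 0.23. At 60 min the close pairs had a median difference of 1.06, with 24 (52.2%) called different, against 1.09 and 86 (54.1%). The quartiles of the difference at 30 min were 0.52 and 1.96 in both classes, and differences of at least 4-fold made up 23.9% of each. The 18 pairs overlapping by under 20 nt had a median of 1.17 at 30 min, with 10 (55.6%) called different, and the 33 tail to tail pairs 51 to 100 nt apart had 0.80 and 15 (45.5%). The medians thus followed no single order with distance.

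The close pair with the most counts, named after its values were seen, was on chromosome 20, plus 2639038 and minus 2639043. Its plus-strand end had 2202 CPM in 4sU 30 min and 3298 CPM in 4sU 60 min, against 840 CPM in the input, and was 2.62-fold (2.58 to 2.67) and 3.93-fold (3.86 to 4.0) higher than input. Its minus-strand end had 334 and 630 CPM, against 443 CPM in the input, with ratios of 0.754 (0.726 to 0.783) and 1.42 (1.37 to 1.47). Both ends of this locus had a higher level at 60 than at 30 min, by 1.5- and 1.89-fold, short of the 2-fold limit.

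The farthest pair, on chromosome 5 at 500 nt, had a plus-strand end with 36.8 CPM in 4sU 30 min and 33.0 CPM in 4sU 60 min, against 17.6 CPM in the input. Its minus-strand end had 6.53 and 1.79 CPM, against 4.27 CPM. With 140 input counts, this end passed the count minimum only with the captured libraries added. In the next, on chromosome 1 (plus 249143713, minus 249144208), the plus-strand end had 45.7 and 18.0 CPM, against 16.7 CPM in the input, and the minus-strand end 17.6 and 27.5 CPM, against 17.3 CPM. The plus-strand ends of both pairs were thus above the input at 30 min, beside minus-strand ends nearer to it. The third farthest pair, on chromosome 11 (plus 134117684, minus 134118178), differed from this. At 30 min its plus-strand end had a ratio of 0.890 (0.783 to 1.01) and its minus-strand end one of 0.576 (0.512 to 0.645).

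In 6 places the plus-strand ends of 2 pairs lay at most 1000 nt apart. On chromosome 1 the pair at plus 1337290 and minus 1337293 was followed after 119 nt by a pair at plus 1337409 and minus 1337419. In the first the minus-strand end held most of the counts, 334 CPM in 4sU 30 min and 346 CPM in 4sU 60 min, against 517 CPM in the input, beside a plus-strand end of 13.1 and 6.50 CPM against 1.5 CPM. In the second the plus-strand end was the larger, at 142 CPM in 4sU 30 min and 78.5 CPM in 4sU 60 min, against 46.2 CPM in the input, beside a minus-strand end of 6.22 and 7.31 CPM against 23.2 CPM. In both pairs the plus-strand end was higher than input at 30 min, 8.73-fold (6.23 to 12.4) and 3.07-fold (2.85 to 3.30). The first of these ends, with 49 input counts, passed the count minimum only with the captured libraries added. The minus-strand ends were 1.55- and 3.73-fold lower, of which the second was called.

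From 30 to 60 min partners differed in 85 of 374 convergent pairs (22.7%), against 24.6% of opposite-strand pairs over 1000 to 5000 nt apart and 14% of same-strand pairs. The share was 27.6% in opposite-strand pairs over 500 to 1000 nt apart. Both partners were called higher at 60 min in 2 convergent pairs (0.535%) and lower in 6 (1.60%). These shares were 0.2% and 2.4% in opposite-strand pairs over 1000 to 5000 nt apart and 0.4% and 7.36% in same-strand pairs. The pairs with both partners highest at 60 over 30 min were on chromosome 19 (plus 50363997, minus 50364462), again chromosome 19 (plus 47549016, minus 47549168) and chromosome 11 (plus 6632097, minus 6632077). The partners of the first were 2.40-fold (2.25 to 2.57) and 2.41-fold (2.04 to 2.86) higher at 60 min, and those of the second 2.57-fold (1.82 to 3.66) and 2.26-fold (2.10 to 2.43). In the chromosome 11 pair, overlapping by 20 nt, the partners moved alike across all libraries. The plus-strand end had 28.9 CPM in 4sU 30 min, 56.9 CPM in 4sU 60 min, against 57.6 CPM in the input, and its share of the pair's counts was 35.8%, 35.4% and 35.6% in these libraries.

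The pairs with both partners lowest at 60 over 30 min were on chromosome 2 (plus 48034091, minus 48034061), chromosome 17 (plus 33901331, minus 33901815) and chromosome 1 (plus 2335188, minus 2335414). The chromosome 17 partners were 4.03-fold (3.16 to 5.21) and 2.91-fold (1.87 to 4.68) lower at 60 min. The minus-strand end of this pair, with 149 input counts, passed the count minimum only through the 4sU 30 min library. The rule thus favours a low ratio of 60 over 30 min at this end, so its value is a description only. The chromosome 2 partners, overlapping by 30 nt, were 3.11-fold (2.69 to 3.60) and 3.82-fold (1.87 to 8.81) lower, the second with only 9 counts in 4sU 60 min. On chromosome 1 the plus-strand end was 4.46-fold lower with 8 counts in 4sU 60 min, and its partner was 2.32-fold lower.

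The shape of the ends in pairs was close to that of other ends. The positions within a site had a median standard deviation (SD) of 2.50 nt in paired sites and 2.67 nt in the others, and the highest position held a median of 44.7% and 44.4% of a site's counts. At least 90% of counts lay at 1 position in 2 of 748 paired sites (0.267%), against 1.97% of the other sites. In 4sU 30 min the mean position was upstream of the input's in 68.6% of paired sites and 66.2% of the others, with median shifts of -0.131 and -0.127 nt. At 60 min this held for 70.7% and 62.5%, with shifts of -0.146 and -0.105 nt.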

How the data were processed

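Members and distance classes were chosen with earlier results of these data known. The authors deposited raw read counts per genomic position and strand, 1 table per library, whole numbers with no normalization by the authors; the submitters' processing notes list cutadapt and Bowtie. Tool versions, the build and the treatment of multiply mapping reads are not given in the sources. With mitochondrial counts the 4sU 30 min library held 14159691 counts, the 4sU 60 min library 8926568 and the input 35410931. No molecular identifiers are named, so amplified copies may be counted as separate reads.

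Same-strand positions within 24 nt of the highest free position were merged into a site. Ratios of CPM carry exact 95% intervals (Clopper-Pearson on the share of the summed count); partner differences add 0.5 to each count and use the standard error of the log odds. A count of 0 would be put at 3 counts; no paired site had one. Named pairs were the 3 with the most counts per class, the 5 largest differences per direction (at least 100 counts at each partner in 4sU 30 min or input) and the 3 highest, lowest, closest and farthest, unless stated. Sites could not be assigned to genes, so the planned gene lists and cell type markers gave no result. Python 3.11.15, scipy 1.17.1 and edgeR 4.0.16 (TMM scaling as an alternative) were used, and the calculations were tested on simulated data.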

Additional observations from a re-analysis of the deposited data

How the results depend on the processing

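Shares of called sites moved with the scaling, the fold limit and the count minimum. Shares over all sites were computed for the scalings only. With median-of-ratios scaling 27.3% of all sites were higher and 24.5% lower at 30 min, and 8.82% and 7.43% for 60 over 30 min. At other count minima and fold limits the values describe paired sites alone and show nothing particular to them. Paired sites called higher in 4sU 30 min than in input made up 25.4%, and 20.2% with TMM and with median-of-ratios scaling, 16.4% with mitochondrial counts in the total, 20.0% at 500 summed counts, 17.1% at 200 input counts, 37.6% at 1.5-fold and 8.96% at 4-fold; those called lower made up 15.5%, and 21% with TMM and with median-of-ratios scaling, 25.8% with mitochondrial counts, 18.5% at 200 input counts, 25.1% at 1.5-fold and 2.54% at 4-fold. At 60 min, sites higher than input made up 21.4%, and 14% with mitochondrial counts, 15.6% at 200 input counts, 31.6% at 1.5-fold and 7.35% at 4-fold; lower sites made up 18.4%, and 29.3%, 21.8%, 28.2% and 4.41% in the same order, and 14.7% in pairs with no further site within 1000 nt. For 60 over 30 min, higher sites made up 4.14%, and 8.96% with TMM, 11.6% with median-of-ratios scaling, 13.1% at 1.5-fold and 0.267% at 4-fold; lower sites made up 11.1%, and 5.21%, 4.95%, 25.3% and 0.802% in the same order, and 8.46% in pairs with no further site. The median log2 ratio of all sites at 30 min was 0.23 with nuclear CPM, -0.01 with TMM and -0.21 with mitochondrial counts. Partners that differed made up 53.7% of pairs at 30 min and 54.3% at 60 min, 69.5% and 70.3% at 1.5-fold, and 23.0% and 19% at 4-fold; the other alternatives, thinning included, gave 49.3% to 55.3% and 50.5% to 54.5%. The 374 pairs became 200 at 500 summed counts, 244 at 200 nt and 201 with no further site. They became 257 where 200 counts were asked of the input alone, 537 at 100 summed counts and 501 at 1000 nt. The captured counts thus take part in choosing the pairs. Overlapping sites less tail to tail sites had a difference of median log2 ratios of -0.28, and -0.10 at 100 summed counts; it lay between -0.36 and -0.10 under the alternatives, of which the scalings cancel in it by construction. The fold limit moves counts by construction; for the rest, the cause was not tested. No paired analysis was possible because each group has 1 library. In pairs with few counts, depth limits the ratio of the rarer partner.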

Other observations

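On chromosome 1, 2 paired sites, picked after their values were seen, stood far above the input at 60 min. The plus-strand end at 150782085 had 5.18 CPM in 4sU 30 min and 24.4 CPM in 4sU 60 min, against 0.0916 CPM (3 counts) in the input, a ratio of 266 at 60 min (89.4 to 1306). Its partner at 150782574 had 52.8 and 30.9 CPM, against 23.0 CPM. The minus-strand end at 183897884 had 8.18 and 36.2 CPM, against 0.153 CPM (5 counts) in the input, a ratio of 238 at 60 min (100 to 739). Its partner at 183897665 had 11.7 and 7.96 CPM, against 1.22 CPM. Both ends passed the minimum of 200 summed counts only through the captured libraries. They were over 4-fold higher at 60 than at 30 min, 4.71-fold (3.40 to 6.62) and 4.43-fold (3.41 to 5.80), while their partners were 1.71- and 1.47-fold lower at 60 min, short of the 2-fold limit. The plus-strand end held 95.6% of its counts at 1 position and the minus-strand end 89.6%, against a median of 44.7% over paired sites.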
